A study of Mus musculus with 9 samples.

Results

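Receptors of the tumour necrosis factor (TNF) superfamily were followed on 9 Affymetrix mouse expression arrays, 1 array per sample. The 10 genes were Tnfrsf1a, Tnfrsf1b, Fas, Cd40, Tnfrsf9, Tnfrsf10b, Tnfrsf11a, Tnfrsf12a, Tnfrsf17 and Tnfrsf21, taken with every probe set that the platform annotation ties to that symbol alone. This gave 18 probe sets of 22626 tested, in which 12393 genes were named. Of the 10 genes, 7 had 2 or more probe sets and 3 had 1. Tnfrsf1b and Tnfrsf9 lie on chromosome 4, Tnfrsf12a and Tnfrsf21 on chromosome 17, and the others on chromosomes 1 (Tnfrsf11a), 2 (Cd40), 6 (Tnfrsf1a), 14 (Tnfrsf10b), 16 (Tnfrsf17) and 19 (Fas).

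All samples were RAW 264.7 cells, a mouse macrophage line, and all differences are between cultures of this 1 line. There were 3 samples after 18 h with bacterial lipopolysaccharide (LPS) at 100 ng/ml, 3 samples labelled as constitutively overexpressing CstF-64, and 3 untreated samples. CstF-64, the product of Cstf2, belongs to the complex that helps cut pre-mRNAs before the poly(A) tail is added. The labels name neither the construct nor the kind of cell population nor what a replicate is. The spread behind the p-values is that between these arrays, and it may be technical. No group carried an empty construct, so CstF-64 and other differences between the cell populations cannot be told apart.

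The receptors of this family sit in the cell membrane and bind trimeric ligands of the TNF family through cysteine-rich repeats. Some, among them Tnfrsf1a, Fas, Tnfrsf10b and Tnfrsf21, carry a death domain inside the cell that can assemble complexes leading to caspase activation. The others recruit TRAF adaptor proteins, which feed the NF-kappaB and MAP kinase pathways. In macrophages, LPS acts through Toll-like receptor 4, and TNF released by the same cells can then act back on them through its own receptors.

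The DNA around the annotated start is shown for receptor genes that were called after LPS and for some that were not. RefSeq promoter windows (build GRCm38.p6, 250 bases before to 50 after the annotated start) were found for 8 of the 10 genes. Printed here are Tnfrsf1b (chr4:145246821-145247120, minus strand) and Fas (chr19:34290409-34290708, plus strand), both higher after LPS, Tnfrsf1a (chr6:125349473-125349772, plus strand), which was not called, and a window of Tnfrsf9 (chr4:150927749-150928048, plus strand), whose values were spread within groups. Each is written 5′ to 3′ on the gene's strand, and capitals mark the motif matches named in the next paragraph.
Tnfrsf1b: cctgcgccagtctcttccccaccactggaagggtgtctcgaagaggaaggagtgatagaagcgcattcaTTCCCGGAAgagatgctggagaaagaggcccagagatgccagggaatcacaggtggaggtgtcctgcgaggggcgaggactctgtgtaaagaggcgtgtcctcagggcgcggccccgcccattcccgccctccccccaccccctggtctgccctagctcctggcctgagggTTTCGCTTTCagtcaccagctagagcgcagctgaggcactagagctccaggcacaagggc
Fas: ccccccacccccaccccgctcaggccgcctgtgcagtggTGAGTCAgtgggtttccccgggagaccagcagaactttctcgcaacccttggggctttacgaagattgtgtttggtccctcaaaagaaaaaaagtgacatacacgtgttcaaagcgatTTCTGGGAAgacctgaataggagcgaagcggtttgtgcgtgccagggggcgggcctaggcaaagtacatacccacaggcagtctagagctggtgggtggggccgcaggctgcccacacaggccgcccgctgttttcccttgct
Tnfrsf1a: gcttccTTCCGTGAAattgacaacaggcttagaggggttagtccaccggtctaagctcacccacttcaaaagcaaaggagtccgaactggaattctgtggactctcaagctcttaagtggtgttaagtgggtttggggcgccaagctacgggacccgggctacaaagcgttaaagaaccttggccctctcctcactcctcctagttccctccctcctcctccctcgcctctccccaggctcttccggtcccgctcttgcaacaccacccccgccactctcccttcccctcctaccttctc
Tnfrsf9: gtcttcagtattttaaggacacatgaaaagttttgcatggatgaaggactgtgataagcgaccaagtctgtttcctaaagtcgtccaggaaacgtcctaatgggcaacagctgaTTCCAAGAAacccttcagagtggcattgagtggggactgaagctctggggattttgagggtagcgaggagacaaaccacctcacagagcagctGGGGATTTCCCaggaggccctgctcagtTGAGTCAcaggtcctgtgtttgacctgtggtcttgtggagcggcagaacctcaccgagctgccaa

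Motifs were searched on both strands, and the choice of motifs and of windows was made with results in view. A gamma-activated sequence (TTCNNNGAA) was found 181 to 173 bases before the start of Tnfrsf1b, 93 to 85 before that of Fas, 244 to 236 before that of Tnfrsf1a and 136 to 128 before that of Tnfrsf9. An interferon-stimulated element (GAAANNGAAA) lay on the opposite strand of Tnfrsf1b, at 10 to 1 bases before the start. An AP-1 site (TGANTCA) lay 211 to 205 bases before the start of Fas and 15 to 9 before that of Tnfrsf9. A match to the NF-kappaB consensus lay 43 to 33 bases before the start in the Tnfrsf9 window, and none was found in the Tnfrsf1b, Fas and Tnfrsf1a windows. No matches of different motifs overlapped. Of all 32851 windows in the promoter table, 8.3% held the gamma-activated sequence, 3.44% the interferon-stimulated element, 7.81% the AP-1 site and 8.46% the NF-kappaB consensus. Of the remaining windows, that of Tnfrsf17 held an interferon-stimulated element on the opposite strand, 101 to 92 bases before the start, and those of Tnfrsf11a, Tnfrsf12a and Tnfrsf21 and a second one of Tnfrsf9 held none of these letters. These matches describe the letters in the windows and show no binding.

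Some facts of the whole series bear on every value. The deposited values are array intensities on a linear scale, already brought to a common trimmed mean of 150.05 to 150.06. Precision is limited by having 3 arrays in each group. The Bacillus control probe sets reached at most 31.2, which served as the background limit. A change is called where limma's p, adjusted by the Benjamini-Hochberg method over 22626 probe sets, was below 0.05, and "rose" and "fell" are used only of such changes. Log2 changes are differences of mean log2(intensity + 13), a scale that understates changes of dim probe sets. LPS array 1 and CstF-64 array 1 stood apart from their groups. Their mean correlations to their own group over all probe sets were 0.966 and 0.975, where the other 7 arrays had 0.977 to 0.985. CstF-64 array 1 correlated at 0.975 to 0.9757 with CstF-64 arrays 2 and 3, and at 0.9761 to 0.9808 with the untreated arrays. It was thus nearer to every untreated array than to its own group, while CstF-64 arrays 2 and 3 correlated at 0.9894 with each other. Of 12 macrophage markers, 11 were above the limit on every array of each group. Their summed intensity was 26599.6 to 29057.7 in LPS samples, 19143.3 to 23596.5 in CstF-64 samples and 17355.3 to 24132.7 in untreated samples. With LPS 5 of the 12 were called higher and 1 lower, beside 6.67% and 10.4% of all named genes. None of 9 measured T and NK cell markers was above the limit on 3 or more arrays. The summed intensity of 7 granulocyte markers was 158.8 to 256.7 in LPS samples, 111.6 to 148.5 in CstF-64 samples and 109.4 to 126.2 in untreated samples, with 2 of the 7 at or below the limit on every array and 1 called higher with LPS. That of 9 fibroblast and endothelial markers was 218.0 to 246.8 in LPS samples, 159.6 to 225.3 in CstF-64 samples and 170.1 to 212.0 in untreated samples, with 6 of the 9 at or below the limit on every array and 1 called higher with LPS. Their part in the receptor values was not tested. The labels were checked with Cstf2. Its brighter probe set (1419645_at) read 317.9, 361.5 and 394.5 in samples labelled CstF-64, against 397.8, 363.1 and 372.2 in untreated samples, a log2 difference of -0.08 (SE 0.13, limma adjusted p = 1.0). The second probe set (1419644_at) read 97.1, 85.4 and 80.4 in samples labelled CstF-64, against 114.7, 100.2 and 134.1 in untreated samples. All of the former lay below all of the latter, but the log2 difference of -0.36 was not called (SE 0.155, limma adjusted p = 0.763). With LPS the brighter probe set fell, to 220.5, 248.1 and 195.9 (log2 change -0.74, limma adjusted p = 0.00343). It was called higher in CstF-64 than in LPS samples (log2 difference 0.66, limma adjusted p = 0.0066). Neither probe set was called higher in samples labelled CstF-64 than in untreated samples. The sources used here do not say where the probe sets lie relative to the construct.

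After LPS, 5 of the 18 receptor probe sets rose and 1 fell. They were both probe sets of Tnfrsf1b, both of Cd40 and the only one of Fas, all higher, and that of Tnfrsf17, lower. Over all probe sets, 5.93% were called higher and 10.7% lower. The median log2 change was 0.38 over the 18 receptor probe sets and -0.04 over all probe sets. Counted by gene, with the brightest probe set (highest mean over the 9 arrays) standing for each, 3 of the 10 receptors rose and 1 fell, beside 6.67% and 10.4% of all named genes, and the median was 0.55 over the 10 genes and -0.03 over all named genes. In the samples labelled CstF-64, 0 of 18 receptor probe sets were higher than in untreated samples and 1 was lower, beside 0.102% and 0.146% of all probe sets. By gene the counts were 0 of 10 and 1 of 10, beside 0.105% and 0.169% of all named genes. The median log2 difference of the 18 probe sets was -0.10, and that of all probe sets 0.00. At an unadjusted limma p below 0.05, 2 receptor probe sets were higher, both of Tnfrsf9, and 2 lower, that of Tnfrsf17 and the brighter one of Tnfrsf11a. How many of all probe sets passed this unadjusted cut was not counted, so the shares above do not apply to it. Both comparisons use the same 3 untreated samples. In the direct comparison of CstF-64 with LPS samples, 0 of 18 probe sets were higher and 6 lower, beside 9.43% higher and 5.79% lower over all probe sets. Below an unadjusted limma p of 0.05 the counts were 0 and 6 as well, again without a count over all probe sets.

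**Figure D1:**
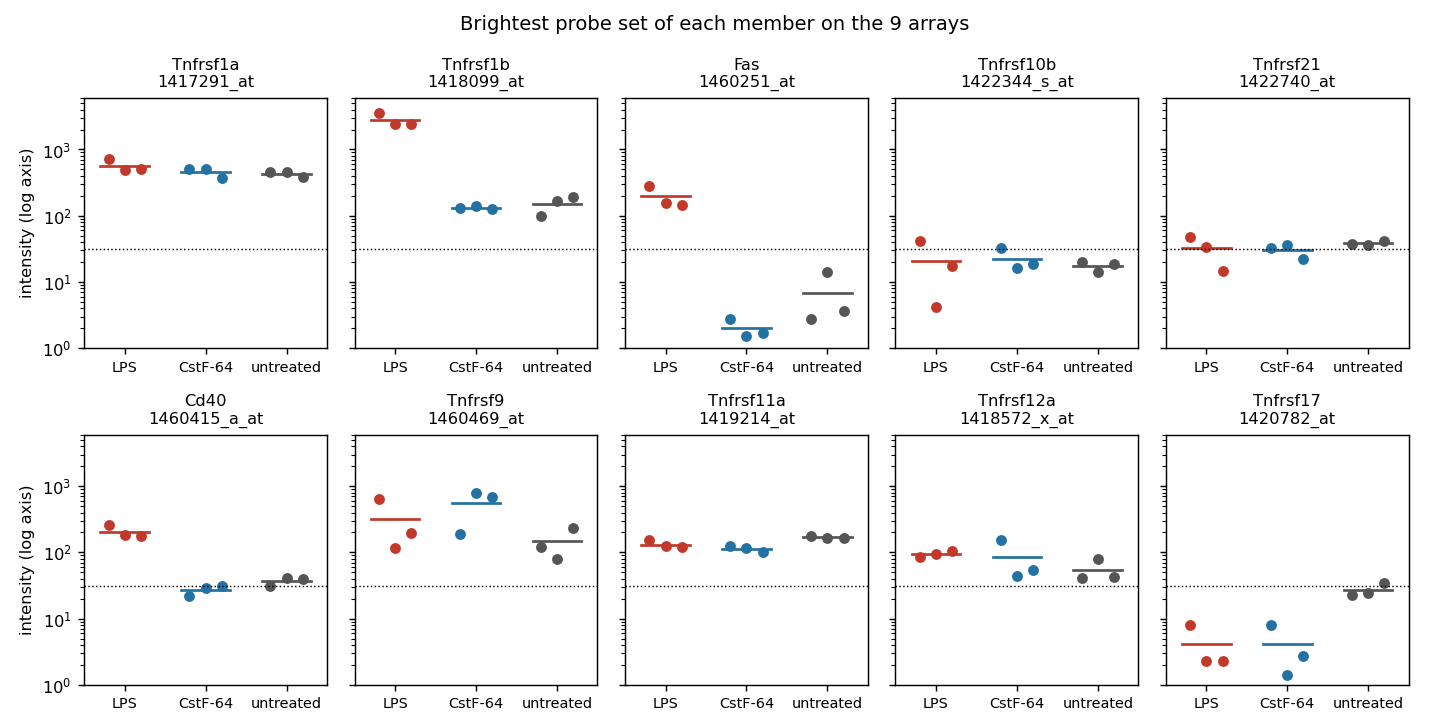
Intensity (log axis) of the brightest probe set of each of the 10 receptors on every array, with LPS, CstF-64 and untreated samples from left to right and the background limit of 31.2 as a line. Tnfrsf1b, Fas and Cd40 have all LPS samples far above the other 6 arrays, while Tnfrsf1a lies between 369.0 and 706.5 on all 9.

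Of the 2 receptors for TNF itself, Tnfrsf1b rose with LPS and Tnfrsf1a did not pass the test, and the difference between them was not tested. Tnfrsf1a encodes the death-domain receptor that is expressed on most cell types, and Tnfrsf1b encodes the receptor found mainly on blood and endothelial cells, which lacks a death domain and signals through TRAF2. Tnfrsf1b (1418099_at) read 3526.4, 2448.9 and 2416.1 in LPS samples, 131.2, 139.8 and 126.6 in CstF-64 samples, and 97.4, 165.5 and 188.6 in untreated samples. Every LPS sample lay far above every other sample, and the CstF-64 values fell inside the untreated range. The means were 2797 ± 632 in LPS samples, 132.5 ± 6.70 in CstF-64 samples and 150.5 ± 47.4 in untreated samples (SD, n = 3 each). Tnfrsf1b rose by 4.13 log2 units with LPS (SE 0.23, limma adjusted p = 4.47e-06). It differed by -0.12 between CstF-64 and untreated samples (SE 0.23, limma adjusted p = 1.0). Between CstF-64 and LPS samples it was lower by a log2 difference of -4.25 (limma adjusted p = 4.08e-06).

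The second Tnfrsf1b probe set (1448951_at) gave the same order. It read 931.2, 664.0 and 455.6 in LPS samples, 37.2, 62.0 and 65.1 in CstF-64 samples, and 57.4, 61.6 and 103.3 in untreated samples. Its log2 rise with LPS was 2.98 (SE 0.29, limma adjusted p = 0.000126). Its rise was numerically smaller than that of the first, and limma's test for unequal change of probe sets of 1 gene gave an adjusted p of 0.11. Tnfrsf1a (1417291_at) read 706.5, 491.6 and 514.0 in LPS samples, 511.6, 506.6 and 369.0 in CstF-64 samples, and 458.6, 460.8 and 379.2 in untreated samples. All LPS samples lay above all untreated samples, but the groups were close, and the log2 difference of 0.38 did not pass the test (SE 0.18, limma adjusted p = 0.196). The log2 difference between CstF-64 and untreated samples was 0.08 (SE 0.18).

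**Figure D2:**
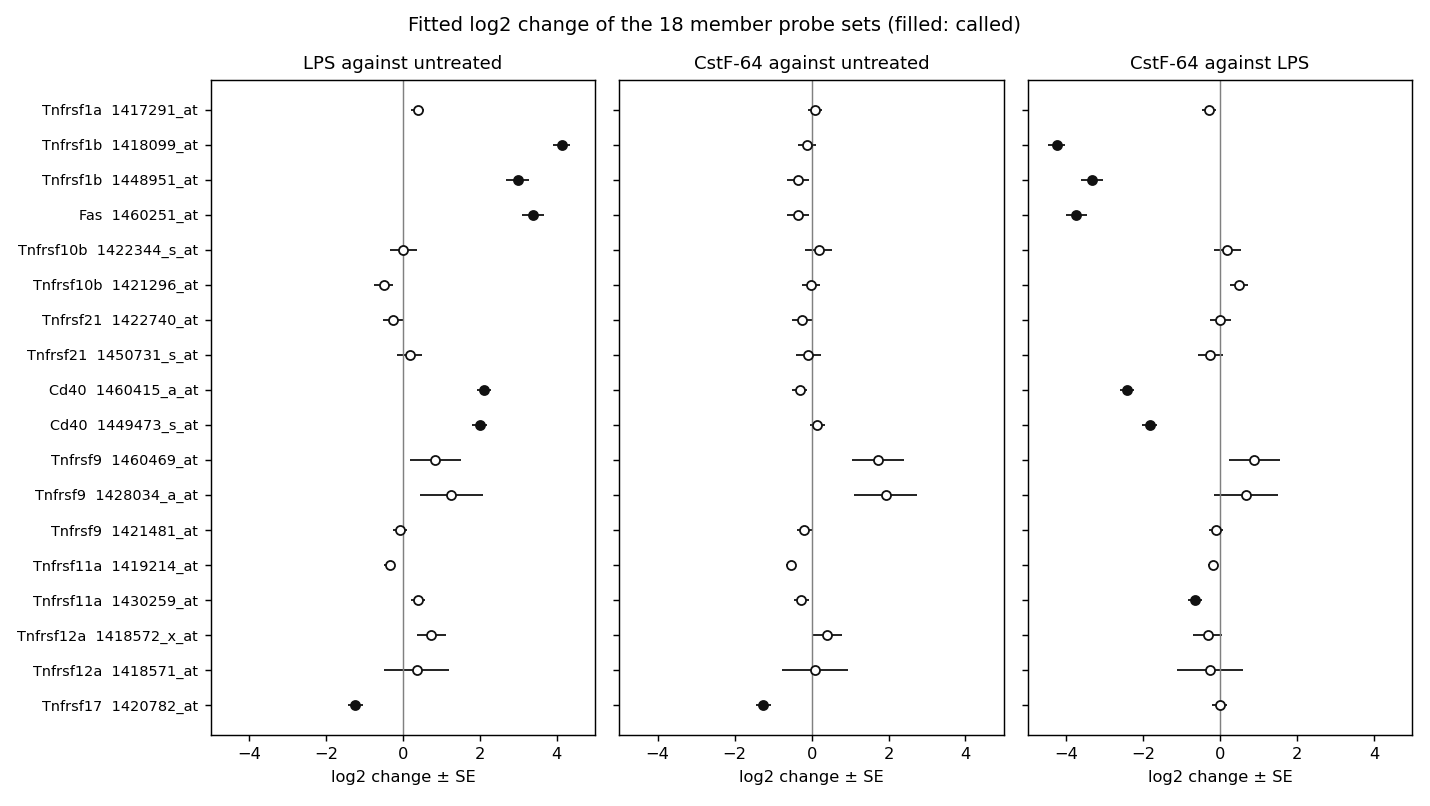
Log2 change with its standard error for each of the 18 probe sets, filled where called. The panels show LPS against untreated (left), CstF-64 against untreated (middle) and CstF-64 against LPS samples (right). The called rises of Tnfrsf1b, Fas and Cd40 after LPS run from 1.99 to 4.13. In CstF-64 against untreated samples only the probe set of Tnfrsf17 is called, and in CstF-64 against LPS samples 6 are called lower.

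Among the other death-domain receptors, Fas rose and Tnfrsf10b and Tnfrsf21 were near or below the background limit. Fas is the receptor for Fas ligand and starts apoptosis through FADD and caspase-8. Its probe set (1460251_at) read 282.8, 156.5 and 145.5 in LPS samples, 2.8, 1.5 and 1.7 in CstF-64 samples, and 2.8, 13.9 and 3.6 in untreated samples. Only the LPS samples were above the limit. Fas was thus at least 5.96-fold higher in LPS than in untreated samples, taken as the geometric mean of the LPS samples over the limit, and the fitted log2 change was 3.38 (SE 0.28, limma adjusted p = 4e-05). The same bound of at least 5.96-fold holds for LPS samples over CstF-64 samples (limma adjusted p = 2.47e-05 for the difference). No fold is given between CstF-64 and untreated samples, since both were below the limit.

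Tnfrsf10b is the mouse receptor for TRAIL. Its probe set 1421296_at read 2.3, 4.8 and 13.8 in LPS samples, 9.6, 17.6 and 16.5 in CstF-64 samples, and 19.7, 17.2 and 8.2 in untreated samples, all below the limit. The other probe set (1422344_s_at) read 41.1, 4.2 and 17.3 in LPS samples, 32.1, 16.0 and 18.6 in CstF-64 samples, and 19.7, 14.2 and 18.5 in untreated samples. It exceeded the limit only on array 1 of the LPS group and array 1 of the CstF-64 group. Tnfrsf21, also called death receptor 6, read 47.4, 33.8 and 14.7 in LPS samples, 32.3, 36.7 and 22.4 in CstF-64 samples, and 37.3, 35.9 and 40.9 in untreated samples on its brighter probe set (1422740_at). These groups overlapped, and the log2 differences from untreated samples were -0.25 with LPS and -0.24 with CstF-64 (SE 0.27 each). The dimmer probe set of Tnfrsf21 (1450731_s_at) was below the limit on all 9 arrays.

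Of the costimulatory receptors, Cd40 rose on both of its probe sets. CD40 is carried by macrophages, dendritic cells and B cells and receives the signal of CD40 ligand from activated T cells. Its probe set 1460415_a_at read 257.1, 182.1 and 174.5 in LPS samples, 22.2, 28.6 and 31.0 in CstF-64 samples, and 31.0, 40.7 and 39.1 in untreated samples. The LPS samples stood clear of the rest, and the CstF-64 samples were all below the limit. The rise with LPS was 2.11 log2 units (SE 0.19, limma adjusted p = 7.51e-05), and LPS samples were at least 6.46-fold above CstF-64 samples. The probe set 1449473_s_at read 125.6, 144.3 and 109.3 in LPS samples, 23.8, 26.2 and 27.7 in CstF-64 samples, and 15.0, 28.0 and 24.2 in untreated samples. All 6 arrays without LPS were below the limit, so Cd40 was at least 4.03-fold higher in LPS than in untreated samples on this probe set (log2 change 1.99, limma adjusted p = 0.000104). The log2 differences between CstF-64 and untreated samples were -0.31 and 0.15 (SE 0.19 each, limma adjusted p = 0.912 and 0.999). Unequal change of the 2 probe sets did not pass the test (limma adjusted p = 0.88).

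Tnfrsf9 encodes 4-1BB, a receptor that costimulates T cells and can also be expressed by myeloid cells. Its values were widely spread within groups. Its brightest probe set (1460469_at) read 646.6, 115.6 and 198.8 in LPS samples, 189.3, 789.3 and 690.5 in CstF-64 samples, and 121.7, 80.8 and 237.5 in untreated samples. CstF-64 arrays 2 and 3 and LPS array 1 were high, while CstF-64 array 1 lay within the untreated range. The second probe set (1428034_a_at) showed the same arrays high. It read 146.3, 28.0 and 41.5 in LPS samples, 13.7, 218.1 and 220.4 in CstF-64 samples, and 9.5, 9.2 and 39.2 in untreated samples. The third (1421481_at) lay between 17.8 and 31.3 on all arrays, and only LPS array 1 passed the limit there.

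With all samples, the log2 difference of Tnfrsf9 between CstF-64 and untreated samples was 1.72 (SE 0.67, limma adjusted p = 0.671) on the brightest probe set and 1.93 (SE 0.82, limma adjusted p = 0.751) on the second. Those between LPS and untreated samples were 0.84 and 1.26 (limma adjusted p = 0.472 and 0.366). These values moved with single arrays. Without CstF-64 array 1 the CstF-64 differences were 2.36 (limma adjusted p = 0.216) and 2.97 (limma adjusted p = 0.0816). They were 1.36 and 1.41 without CstF-64 array 2, 1.46 and 1.41 without CstF-64 array 3 (limma adjusted p = 1.0 in each case), and 2.11 and 2.34 without untreated array 3. With CstF-64 array 1 and LPS array 1 both left out, the CstF-64 differences of 2.36 and 2.97 passed the test (limma adjusted p = 0.0405 and 0.0161). This choice was made after the data had been seen. CstF-64 against LPS then also passed, at 2.19 and 2.30 (limma adjusted p = 0.0126 and 0.00833), where with all samples it was 0.89 and 0.67 (limma adjusted p = 0.448 and 0.677). Without LPS array 1 the brightest probe set differed by 0.17 between LPS and untreated samples (limma adjusted p = 0.901) and the second by 0.67 (limma adjusted p = 0.681).

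**Figure D3:**
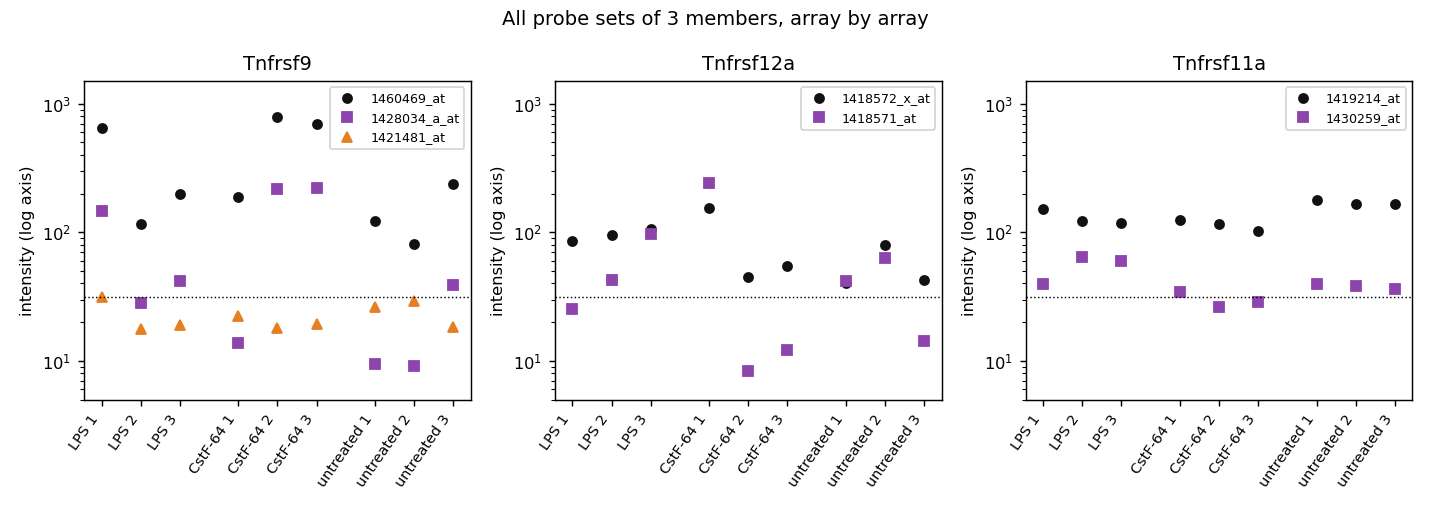
Intensity on each array (log axis) for every probe set of Tnfrsf9, Tnfrsf12a and Tnfrsf11a, with LPS, CstF-64 and untreated samples from left to right and the background limit as a dotted line. CstF-64 array 1 is low for Tnfrsf9 and high for Tnfrsf12a relative to arrays 2 and 3 of its group.

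Tnfrsf11a encodes RANK, the receptor through which RANK ligand drives osteoclast formation, and its 2 probe sets had log2 changes of opposite sign with LPS. The brighter one (1419214_at) read 152.6, 122.7 and 118.6 in LPS samples, 123.7, 116.4 and 102.3 in CstF-64 samples, and 177.3, 167.1 and 166.2 in untreated samples. All LPS and all CstF-64 samples lay below all untreated samples, but neither difference passed the test. The log2 differences were -0.35 for LPS (SE 0.14, limma adjusted p = 0.116) and -0.53 for CstF-64 (SE 0.14, limma adjusted p = 0.324). The dimmer one (1430259_at) read 39.8, 64.7 and 59.6 in LPS samples, 34.4, 26.2 and 28.9 in CstF-64 samples, and 39.9, 38.3 and 36.5 in untreated samples. Here LPS arrays 2 and 3 were above all untreated samples and LPS array 1 was not.

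On that dimmer probe set Tnfrsf11a differed by 0.38 between LPS and untreated samples (SE 0.19, limma adjusted p = 0.211). It was lower in CstF-64 than in LPS samples, with a log2 difference of -0.65 (limma adjusted p = 0.0436), a call lost under 10 of 18 alternatives. The test for unequal change of the 2 probe sets with LPS gave an adjusted p of 0.04, where 5.85% of 4956 genes with 2 or more probe sets were called, and this call was lost under 10 of 12 alternatives. In the CstF-64 comparison its adjusted p was 1.0. Without LPS array 1, both probe sets passed the test with LPS, at -0.46 on the brighter (limma adjusted p = 0.0375) and 0.55 on the dimmer (limma adjusted p = 0.0438). Which parts of the transcript the probe sets cover was not analysed here. The summed intensity of 6 measured osteoclast markers was 1087.0 to 2325.8 in LPS samples, 1506.1 to 3274.4 in CstF-64 samples and 1048.7 to 1836.2 in untreated samples. With LPS 2 of the 6 were called higher and 0 lower, beside 6.67% and 10.4% of all named genes. Of these markers, Calcr and Ocstamp were at or below the limit on every array. Their part in the Tnfrsf11a values was not tested.

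Tnfrsf12a encodes Fn14, the receptor for TWEAK, which is known for its induction in injured tissue. Its brighter probe set (1418572_x_at) read 85.9, 95.2 and 105.6 in LPS samples, 154.0, 44.6 and 54.5 in CstF-64 samples, and 40.5, 79.9 and 42.6 in untreated samples. All LPS samples lay above all untreated samples, with a log2 difference of 0.73 that did not pass the test (SE 0.37, limma adjusted p = 0.234). The second (1418571_at) read 25.4, 42.9 and 96.2 in LPS samples, 239.8, 8.3 and 12.1 in CstF-64 samples, and 41.5, 62.6 and 14.4 in untreated samples. CstF-64 array 1 was the highest of the 9 on both probe sets, and CstF-64 arrays 2 and 3 were the lowest of the 9 on the second. With all samples the log2 differences between CstF-64 and untreated samples were 0.41 (SE 0.37) and 0.09 (SE 0.85), and without CstF-64 array 1 they were -0.06 and -1.06 (limma adjusted p = 0.991 and 0.555).

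Tnfrsf17 encodes BCMA, a receptor for BAFF and APRIL known from plasma cells, and in these samples it was at the edge of detection. Its probe set (1420782_at) read 7.9, 2.3 and 2.3 in LPS samples, 8.1, 1.4 and 2.7 in CstF-64 samples, and 22.6, 24.7 and 34.9 in untreated samples. Every LPS and CstF-64 sample lay below every untreated sample, but only untreated array 3 exceeded the limit. It was called lower with LPS (log2 change -1.24, SE 0.19, limma adjusted p = 0.0019). It was also called lower in samples labelled CstF-64 (log2 difference -1.25, SE 0.19, limma adjusted p = 0.0303), a call lost under 11 of 17 alternatives with adjusted p between 0.00865 and 0.162. No fold is given, because nearly all values were below the limit. Of 8 measured B cell and plasma cell markers, 3 were at or below the limit on every array. These 3 were Cd79b, Pax5 and Jchain, and Ms4a1 and Cd79a lay between 12.8 and 51.1. In each group 3 of the 8 were above the limit on every array, and 1 of the 8 was called higher with LPS. The summed intensity of the 8 was 1112.1 to 1485.2 in LPS samples, 787.6 to 883.4 in CstF-64 samples and 711.4 to 943.5 in untreated samples, most of it from Blnk, Sdc1 and Ighm.

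The ligands of the family were measured for 14 of 18 listed genes. After LPS 3 of the 14 rose and 2 fell, beside 6.67% and 10.4% of all named genes, with a median log2 change of 0.13. The number that fell was 1 under 11 of 18 alternatives. None was called in the CstF-64 comparison, where 0.105% of all named genes were called higher and 0.169% lower. Tnf, the ligand of Tnfrsf1a and Tnfrsf1b, read 5036.2, 3268.3 and 3180.0 in LPS samples, 478.8, 148.9 and 104.5 in CstF-64 samples, and 213.7, 60.0 and 246.3 in untreated samples. It rose by 4.53 log2 units with LPS (SE 0.57, limma adjusted p = 0.000592). The ligand and Tnfrsf1b were thus both higher in every LPS sample than in any other sample. Tnfsf9, the ligand of Tnfrsf9, read 628.3, 627.2 and 633.8 in LPS samples, 284.3, 203.9 and 207.3 in CstF-64 samples, and 234.3, 267.6 and 269.3 in untreated samples. It rose by 1.25 log2 units (SE 0.14, limma adjusted p = 0.000273) with little spread, in the same samples in which its receptor varied widely. Lymphotoxin alpha (Lta), a further ligand of both TNF receptors, rose by 1.25 log2 units close to the limit, at 43.3, 24.4 and 30.2 in LPS samples, against 5.2, 5.6 and 7.1 in untreated samples (limma adjusted p = 0.00364). Tnfsf8, the CD30 ligand, was called lower (log2 change -1.26, limma adjusted p = 0.00041) with all LPS and untreated values below the limit, so it has no fold. The ligands Fasl and Tnfsf11, which bind Fas and RANK, were below the limit on every array. Cd40lg, the CD40 ligand, lay between 16.2 and 45.6 and was not called (limma adjusted p = 0.846 with LPS). No value is given here for Tnfsf12, the ligand of Tnfrsf12a.

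Of the other receptors of the family, 15 of 18 listed genes were measured. With LPS 1 rose, a share close to the 6.67% of all named genes, and 0 fell, beside 10.4%. Tnfrsf22, a mouse decoy receptor for TRAIL, read 471.8, 235.4 and 175.1 in LPS samples, 154.6, 171.2 and 160.3 in CstF-64 samples, and 90.6, 111.8 and 127.2 in untreated samples. Its rise was 1.21 log2 units (SE 0.29, limma adjusted p = 0.0188), a call lost without untreated array 1 or untreated array 2. Its close copy Tnfrsf23, whose signal may be shared with it, had a log2 change of 1.21 as well and missed the threshold (limma adjusted p = 0.063). None of the 15 was called between CstF-64 and untreated samples with all arrays, where 0.105% of all named genes were called higher and 0.169% lower. Tnfrsf18, which encodes the T cell costimulator GITR, had the smallest adjusted p there, with a log2 difference of 0.77 (SE 0.20, limma adjusted p = 0.33).

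Downstream of the receptors, 27 of 32 listed signalling genes were measured. With LPS 4 rose and 2 fell, beside 6.67% and 10.4% of all named genes, with a median log2 change of 0.19. None was called in the CstF-64 comparison, where 0.105% of all named genes were called higher and 0.169% lower. Traf1, an adaptor that binds Tnfrsf1b together with TRAF2, read 607.1, 490.4 and 501.8 in LPS samples, 68.4, 38.8 and 45.8 in CstF-64 samples, and 31.8, 32.4 and 24.5 in untreated samples. It rose by 3.68 log2 units with LPS (SE 0.19, limma adjusted p = 3.75e-06). The other 3 that rose were Tnip1, a partner of A20 (log2 change 1.82), Cflar (1.88) and Birc3 (1.31). Cflar encodes the caspase-8 inhibitor c-FLIP, and Birc3 the ubiquitin ligase cIAP2. Rbck1 and Otulin, which build and remove linear ubiquitin chains, fell by 0.68 and 0.46 on the log2 scale (limma adjusted p = 0.017 and 0.0273). The number that fell was 1 after quantile normalization and 1 after median centring of the arrays, and the number that rose was then 6 and 8. Without untreated array 1 or without LPS array 3, 0 were called lower.

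Of 6 genes listed for the shedding of receptors and ligands from the cell surface, 5 were measured. Not all of the 6 encode the proteases that do the cutting. With LPS 1 of the 5 rose and 2 fell, beside 6.67% and 10.4% of all named genes. Furin rose with LPS (log2 change 1.00, limma adjusted p = 0.0245). Adam17, the TNF-converting enzyme that also sheds both TNF receptors, and Adam10 fell by 0.87 and 0.72 on the log2 scale (limma adjusted p = 0.0201 and 0.0253), although 0 genes of this list were called lower after median centring, without untreated array 2 or without untreated array 3. The call of Furin was lost without untreated array 1, without untreated array 2 and in the fit to only the groups compared. Adam17 read 372.5, 588.1 and 566.8 in LPS samples, against 732.3, 1055.5 and 1020.0 in untreated samples. The factor p53 can raise Fas and Tnfrsf10b. Of 6 measured genes linked to it, 2 rose with LPS and 0 fell, beside the same shares of all named genes. They were Mdm2, the ubiquitin ligase of p53 (log2 change 1.56, limma adjusted p = 0.000582), and Gadd45a (1.18, limma adjusted p = 0.0386), and with 1 array left out the count was 1 to 2. No gene of these 2 lists was called in the CstF-64 comparison, where 0.105% of all named genes were called higher and 0.169% lower. There, at an unadjusted limma p below 0.05, 2 ligands were higher and 0 lower, and 1 of the other receptors was higher and 1 lower. Of the signalling genes 1 was higher and 0 lower, of the shedding list 0 were higher and 2 lower, and 0 p53-linked genes passed either way. How many of all named genes passed this unadjusted cut was not counted.

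**Figure D4:**
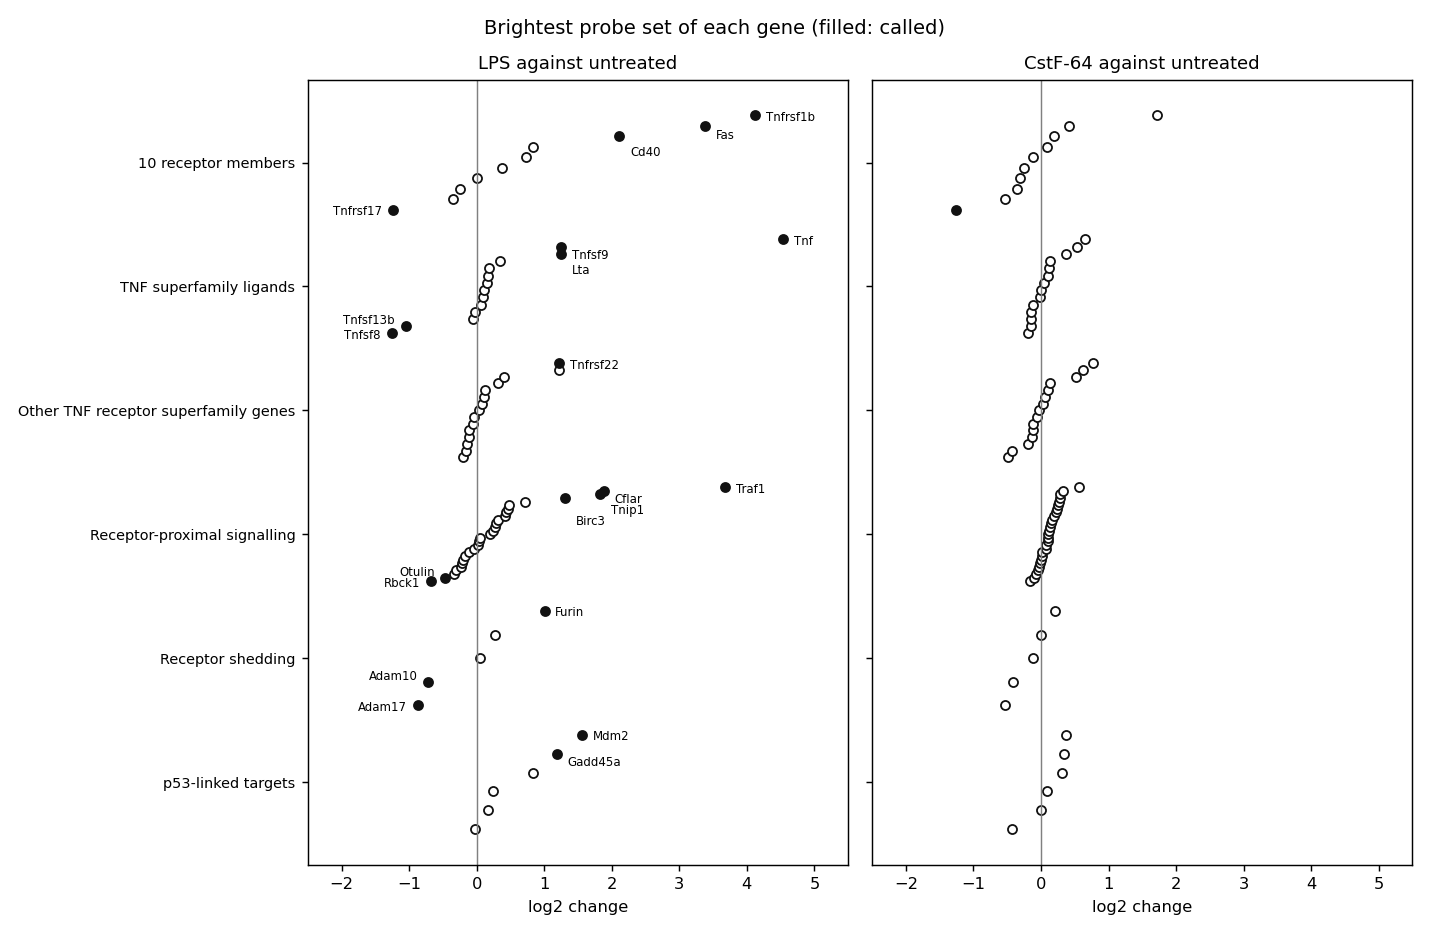
Log2 change of the brightest probe set of each measured gene in the receptor set and in 5 lists of connected genes, in LPS against untreated (left) and CstF-64 against untreated samples (right), filled and named on the left where called. Tnf, Tnfrsf1b, Traf1 and Fas lie farthest to the right after LPS, and in the CstF-64 panel only Tnfrsf17 is filled.

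The genes whose values over the 9 arrays lay nearest to those of Tnfrsf1b, Fas and Cd40 were found by the mean absolute difference of centred log2 values among 12383 other named genes. Nearest to Tnfrsf1b were Zbp1 (0.28 log2 units), Vegfc (0.32) and Oasl2 (0.33). Nearest to Fas were Ccl6 (0.21), Vegfc (0.25) and Ifi202b (0.27), and nearest to Cd40 were Gbp6 (0.15), Rnf19b (0.16) and Slfn4 (0.17). Zbp1, a sensor of nucleic acids in the Z form, read 406.3, 295.0 and 343.6 in LPS samples, against 4.6, 5.0 and 9.9 in untreated samples. Gbp6, an interferon-inducible GTPase, read 67.2, 61.2 and 56.8 in LPS samples, against 0.4, 3.0 and 3.9 in untreated samples. Since they were chosen for their likeness to receptors called with LPS and not with CstF-64, their own calls carry no further information. The likeness to Fas rests partly on 6 arrays on which Fas was below the limit. Zbp1, Oasl2, Ccl6 and Gbp6 were also below the limit on these 6 arrays, and the log2 scale used understates changes of such dim values.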

How the data were processed

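RNA was measured on 9 Affymetrix arrays, 3 per group. The deposited values are linear intensities, 1 per probe set and array, per the file headers and values. The software, background correction and normalization used were not given in the sources used here. Values were kept as deposited, because the means after trimming 2% from each end differed by less than a factor of 1.1. Medians were 49.3, 45.6 and 42.75 on the LPS arrays and 51.1 to 54.2 on the others, and 38 values were exactly 0. Of 22626 non-control probe sets, 20380 had 1 gene symbol in the platform annotation, 691 several and 1555 none, and only the first kind was named.

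From the deposited intensities log2(intensity + 13) was computed, 13 being 0.25 of the median of all values (50.2), rounded. In limma 3.58.1 (R 4.3.3), lmFit gave a mean per group from all 9 arrays together, followed by eBayes with an intensity trend and two-sided tests. limma's diffSplice F test was used for unequal probe sets of 1 gene. The background limit of 31.2 was the highest value of 27 Bacillus control probe sets (median 2.2). Where all arrays of a group were at or below it, a fold is the geometric mean of the brighter group over the limit, written "at least". The fits were tested on simulated data.

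The receptors, gene lists and tests were chosen with earlier results of these data known, so they give no independent support. Named were all receptors, Tnf, Tnfsf11, Tnfsf12, Cd40lg, Fasl and Cstf2, up to 4 genes per list by adjusted p, and the 3 nearest genes of the 3 receptors with the smallest adjusted p with LPS. Beyond this rule, Tnfrsf23 and the marker genes were named after their values were seen. Alternatives were quantile normalization, median centring, offsets of 1 and 50, no intensity trend, a filter to probe sets above the limit on 3 or more arrays, a fit to the groups compared, a replicate block, each array left out, and LPS array 1 and CstF-64 array 1 left out together, the last chosen after seeing the data.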

Additional observations from a re-analysis of the deposited data

How the results depend on the processing

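Of 13 called changes of receptor probe sets in the 3 comparisons, 11 were called under every alternative run, up to 18 each. These were the probe sets of Tnfrsf1b, Cd40 and Fas in both comparisons with LPS samples, and that of Tnfrsf17 in LPS against untreated samples. Both comparisons use the same LPS samples, so these calls are not separate results. No called value changed sign, and of 957 alternative values 45 changed sign, none of them called in either fit. With LPS, the number of receptor probe sets called higher stayed between 5 and 6. The number called lower was 0 after the filter on dim probe sets, which removes Tnfrsf17, 1 to 2 with 1 array left out, and 2 without LPS array 1 and CstF-64 array 1. For CstF-64 against untreated samples, the number called higher was 2 without those 2 arrays. The number called lower was 0 with an offset of 1, with no intensity trend, after the filter, with only the groups compared and with the replicate block, and 0 to 1 with 1 array left out. The cause was not tested. For CstF-64 against LPS samples, the number called higher was 2 without those 2 arrays. Same-numbered arrays had residual correlations of -0.063 to 0.158, and differently numbered ones -0.236 to 0.196. With residuals taken from means of 3 arrays, these values cannot decide whether the numbers pair the samples. The replicate block lowered the calls over all probe sets in CstF-64 against untreated samples to 13 higher and 19 lower, against 23 and 33 without it, and among receptors it ended the calls of Tnfrsf17 (limma adjusted p = 0.0626) and, in CstF-64 against LPS samples, of the dimmer Tnfrsf11a probe set (0.0741) and of unequal change of the Tnfrsf11a probe sets with LPS, and changed no other. These counts were 8 to 53 and 10 to 57 with 1 array left out, and 141 and 145 without the 2 arrays that stand apart. With LPS, the split over all probe sets of 1341 higher and 2414 lower became 1528 and 1780 after quantile normalization and 2228 and 1455 after median centring, which moved the median log2 change over all probe sets to 0.12. The number lower with LPS was 1475 to 2653 with 1 array left out.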
